A study of Mus musculus with 15 samples.

Results

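Csf1r, Il10ra, Tgfbr1 and Ccl3 are 4 genes through which macrophages receive or send cytokine signals, and each has at least 1 site bound by the nuclear receptors RevErbalpha and RevErbbeta. They were taken from the authors' table of sites common to both proteins by the gene name assigned to each site, which is that of the nearest expressed gene. This gave 7 of 1544 common sites: 1 for Csf1r, 1 for Il10ra, 3 for Tgfbr1 and 2 for Ccl3. The sites are assigned to 4 of the 1220 gene IDs in the table.

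RevErbs are repressors of the circadian clock that bind DNA at a nuclear receptor half-site and recruit a corepressor complex. Macrophage enhancers are themselves transcribed, and nascent RNA made at an enhancer is commonly read as a sign of its activity. Csf1r is the receptor tyrosine kinase for M-CSF and interleukin-34, which macrophages need to survive. Il10ra is the ligand-binding chain of the receptor for interleukin-10, which acts through Stat3 to restrain inflammatory genes. Tgfbr1 is the type I receptor kinase for TGF-beta and phosphorylates Smad2 and Smad3. Ccl3, also called MIP-1alpha, is a chemokine that attracts leukocytes through receptors such as Ccr1.

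Binding was measured by streptavidin pull-down and sequencing (biotin ChIP-seq) in RAW cells, a mouse macrophage line, that expressed biotinylated RevErbalpha or biotinylated RevErbbeta (labelled BLRP-RevErbalpha and BLRP-RevErbbeta), and in control RAW cells labelled BirA, the biotin ligase. 5'GRO-seq maps where capped nascent RNA begins and was made in RAW cells with biotinylated RevErbalpha (BLRP-RevErba) and in control RAW cells (BTEV-Ctrl). GRO-seq maps RNA on engaged polymerases and was made in macrophages grown from bone marrow (BMDM). Both BMDM groups were RevErbalpha flox/flox and RevErbbeta flox/flox, with Tie2-Cre in the group labelled DKO and without Cre in the group labelled WT. The labels give the background of all these cells as C57Bl6, the RAW line included, and this was not checked for the RAW line. Both BMDM groups were grown with 30% L-cell conditioned medium and 10 ng/mL M-CSF, the ligand of Csf1r. The Tie2 promoter drives Cre in endothelial and blood-forming cells, not in macrophages alone. Each group is 1 sample in the labels, so no difference below has a replicate check and none has a p-value. No age or number of animals and no number of RAW clones was given in the sources used here.

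ChIP-seq values come as 3 runs per RevErb and GRO-seq values of genes as 2 runs per genotype, and these were read as repeat runs of 1 sample. The RevErb runs ranged from 598490 to 5276592 tags, BirA had 10548880, the 5'GRO-seq libraries had 7238710 (biotinylated RevErbalpha) and 18708148 (control), and the GRO-seq runs ranged from 34852907 to 46649008. The header of the table also names stimulated RevErb libraries, and the columns do not tell which run, if any, was stimulated. The column read as BirA is named BirA-input and could stand for an input library. Nr1d1, the gene of RevErbalpha, read 9.44 and 9.56 in the DKO runs and 7.91 and 7.48 in the WT runs on the log2 scale. Reads are summed over the gene body, so loss of the floxed exons alone cannot be seen in them; the values do not check the label, and the cells are called the library labelled DKO. Of 14 macrophage marker symbols (Emr1 and Adgre1 name the same gene) 5 have a site and therefore a value. Csf1r, Mpeg1, Fcgr1, Tyrobp and Cd14 had WT means of 12.52, 10.67, 10.49, 9.64 and 9.11. Of 5 endothelial markers only Vwf is in the table, at 9.82 (labelled DKO) and 9.62 (WT), and no marker listed for neutrophils, B cells, T cells or fibroblasts is in it. A gene without a common site has no row, so these absences do not bear on the makeup of the cultures.

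All 7 sites are 157 bp long, and positions are on mouse build mm9. The Csf1r site (chromosome 18, 61268291 to 61268447) lies 3143 bp downstream of the gene's start. It is in neither of the authors' enhancer lists, and the authors' class for it reads H3K4me3 above H3K4me1. The Il10ra site (chromosome 9, 45108956 to 45109112) lies 31805 bp upstream of its start and is in the authors' list of intergenic enhancers, which have high H3K4me1 and low H3K4me3.

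The 3 Tgfbr1 sites all lie upstream of 1 start, at 47366177 on chromosome 4. The farthest is 49797 bp away (47316302 to 47316458) and is in the enhancer list but not in its intergenic part. The middle site is 37722 bp away (47328377 to 47328533) and the nearest 6056 bp away (47360043 to 47360199), and both are intergenic enhancers. Col15a1, a collagen gene, is the next named protein-coding gene before Tgfbr1 in RefSeq (GRCm38.p6). A further common site, assigned to Col15a1 (chromosome 4, 47273526 to 47273682), lies 42776 bp from the farthest Tgfbr1 site.

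**Figure D1:**
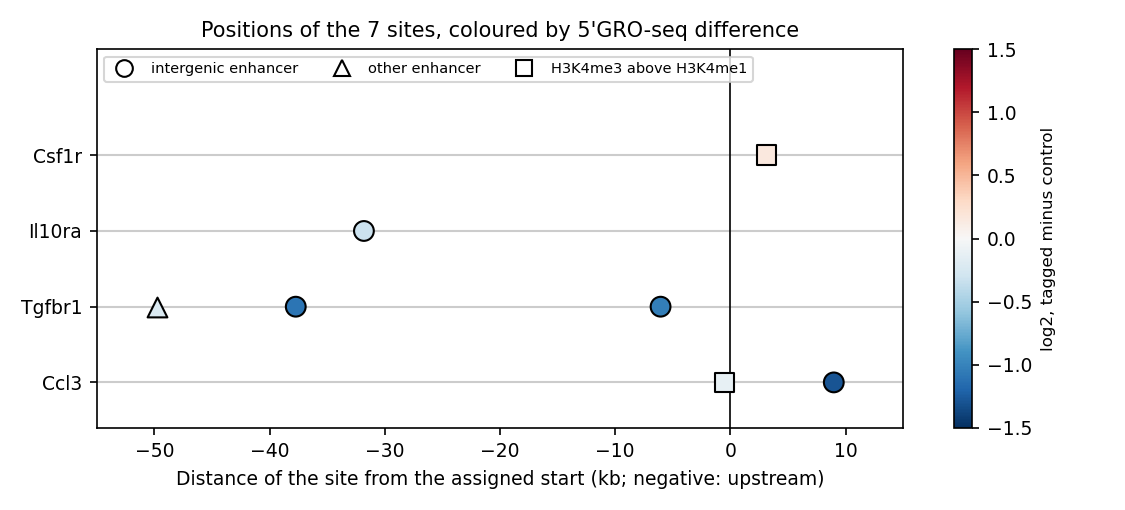
Distance in kb of each of the 7 sites from the start of its assigned gene (negative values are upstream), with the shape giving the authors' class and the colour the 5'GRO-seq log2 difference, biotinylated RevErbalpha minus control. The 3 dark blue sites, 2 of Tgfbr1 and 1 of Ccl3, are intergenic enhancers with differences of -1.10, -1.04 and -1.29.

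The 2 Ccl3 sites lie on either side of the Ccl3 start at 83462880 on chromosome 11, 9484 bp apart. One is 504 bp upstream (83463306 to 83463462) and is in neither enhancer list, with H3K4me3 above H3K4me1. The other is 8980 bp downstream (83453822 to 83453978) and is an intergenic enhancer. Ccl3 sits among chemokine genes: Ccl6 and Ccl4 are its named protein-coding neighbours in RefSeq, and the annotated span of Ccl4 there overlaps that of Ccl3.

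Promoter windows of Ccl3 and of 2 RefSeq starts of Tgfbr1 were searched for short sequences, and none of Csf1r or Il10ra was. The 504 bp site is the member site nearest to a start, so only the Ccl3 promoter is shown here. The 250 bases before the Ccl3 start in RefSeq (GRCm38.p6, chr11:83649379-83649628, minus strand, written 5' to 3' along the gene) end before the bound site begins, so this window is next to the site and does not contain it. Capitals mark AGGTCA, the nuclear receptor half-site, and TTCCTC, which is the core of PU.1 sites GAGGAA read on the other strand.

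Ccl3 promoter: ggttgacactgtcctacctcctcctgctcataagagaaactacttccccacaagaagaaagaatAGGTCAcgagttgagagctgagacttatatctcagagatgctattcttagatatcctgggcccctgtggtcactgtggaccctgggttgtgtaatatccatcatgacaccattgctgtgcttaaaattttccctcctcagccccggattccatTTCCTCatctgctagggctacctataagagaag

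AGGTCA starts 186 bases before the start of the gene and TTCCTC 33 bases before it, and the 2 do not overlap. Searched on both strands of 32851 RefSeq windows of the same length, AGGTCA was present in 14% and GAGGAA in 23.3%. GGGTCA, another form of the half-site, and TGANTCA, the AP-1 site, were not found in the Ccl3 window and were present in 11.6% and 6.75% of all windows. In neither Tgfbr1 window was the half-site found, in either form, nor the AP-1 site. The PU.1 core was found in Tgfbr1 window 2, starting 95 bases before that start, and not in the other Tgfbr1 window. These are matches of letters and not measured sites.

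Scaled RevErb signal at the 7 sites stood above BirA in every run, although some values of shallow runs stand for under 1 tag. All 6 RevErb runs exceeded BirA at 7 of 7 sites, as they did at 97.3% of all common sites, which had been called for enrichment. Values are log2 of tags in 157 bp scaled to 10000000 per run. BirA held only about 1.4 to 3.8 tags a site at the 7 sites, so each difference from it rests on few control tags. Averaged over both proteins, the signal exceeded BirA by 3.23 to 5.60, with a median of 4.10, and the median over all 1544 sites was 4.44. The strongest was the middle Tgfbr1 site, also with the runs above 1000000 tags alone (5.40). The lowest values were those of the downstream Ccl3 site (3.23) and the farthest Tgfbr1 site (3.42), but with those deeper runs alone the downstream Ccl3 site was at 3.93, above the Il10ra site (3.52) and the farthest (3.49) and nearest (3.78) Tgfbr1 sites.

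At the Csf1r site the RevErbalpha runs read 5.73, 6.40 and 7.00, the RevErbbeta runs 5.37, 6.36 and 6.75, and BirA 1.24. It was the 1 member site where the RevErbalpha mean was the higher, by 0.22, and the runs of the proteins overlapped. Its RevErbalpha mean of 6.38 ± 0.64 (SD, 3 runs) was above that of 85.3% of all common sites. RevErbalpha runs 2 and 3 were shallow, and their values here stand for about 5.7 and 7.6 tags. The signal of the site over BirA, 5.03 with all runs, was 4.56 with the runs above 1000000 tags alone.

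At the Il10ra site the RevErbalpha runs read 4.65, 4.86 and 6.22, the RevErbbeta runs 5.79, 7.82 and 6.21, and BirA 2.21. RevErbalpha was lower by 1.36 on average, the widest gap between the proteins among the 7 sites, with overlapping runs. The BirA value was above that of 96.9% of all sites, although it stands for about 3.8 tags.

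At the middle Tgfbr1 site the RevErbalpha runs read 6.08, 6.81 and 7.18, the RevErbbeta runs 7.71, 7.84 and 7.18, and BirA 1.53. Its mean over both proteins, 7.13, was above that of 93.3% of all sites, and the highest RevErbalpha run equalled the lowest RevErbbeta run. The nearest Tgfbr1 site read 4.96, 5.94 and 5.97 in RevErbalpha runs, 6.06, 6.61 and 6.30 in RevErbbeta runs and 1.87 in BirA. It was the only member site with all 3 RevErbalpha runs below all 3 RevErbbeta runs (1 of 7 sites), an order seen at 7.38% of all sites. The opposite order was seen at 0 of 7 sites and at 1.10% of all sites. The farthest Tgfbr1 site read 4.46, 5.70 and 2.73 in RevErbalpha runs, 5.13, 5.12 and 5.15 in RevErbbeta runs and 1.30 in BirA. Its lowest value, RevErbalpha run 3, stands for under 1 tag (about 0.34). The 3 Tgfbr1 sites thus differed widely, from a mean of 4.71, above that of 11.1% of sites, to 7.13.

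The Ccl3 sites were unequal as well. The upstream site read 5.83, 6.94 and 5.56 in RevErbalpha runs, 6.37, 7.83 and 6.44 in RevErbbeta runs and 1.34 in BirA. The downstream site read 5.08, 2.14 and 6.70 in RevErbalpha runs, 5.10, 6.39 and 2.82 in RevErbbeta runs and 1.48 in BirA. The upstream site read 5.56 or more in every run, although its lowest value, RevErbalpha run 3, stands for only about 2.8 tags. The downstream site ranged more widely than any other member site. Its low values, RevErbalpha run 2 and RevErbbeta run 3, came from shallow runs of 682651 and 780281 tags and stand for under 1 tag each (about 0.23 and 0.47), while its highest, RevErbalpha run 3, came from a shallow run of 598490 tags. Its signal over BirA, 3.23 with all runs, was 3.85 without RevErbalpha run 2 and 2.71 without RevErbalpha run 3. Across the 7 sites the shallow runs held 0.23 to 11.2 tags a site and the deep runs 11.1 to 112. Across sites RevErbalpha was lower than RevErbbeta on average at 6 of 7 member sites and at 1020 of 1544 sites. The proteins were pulled down from separate cells, and whether this was equally efficient was not tested. The order therefore does not compare how strongly they bind.

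**Figure D2:**
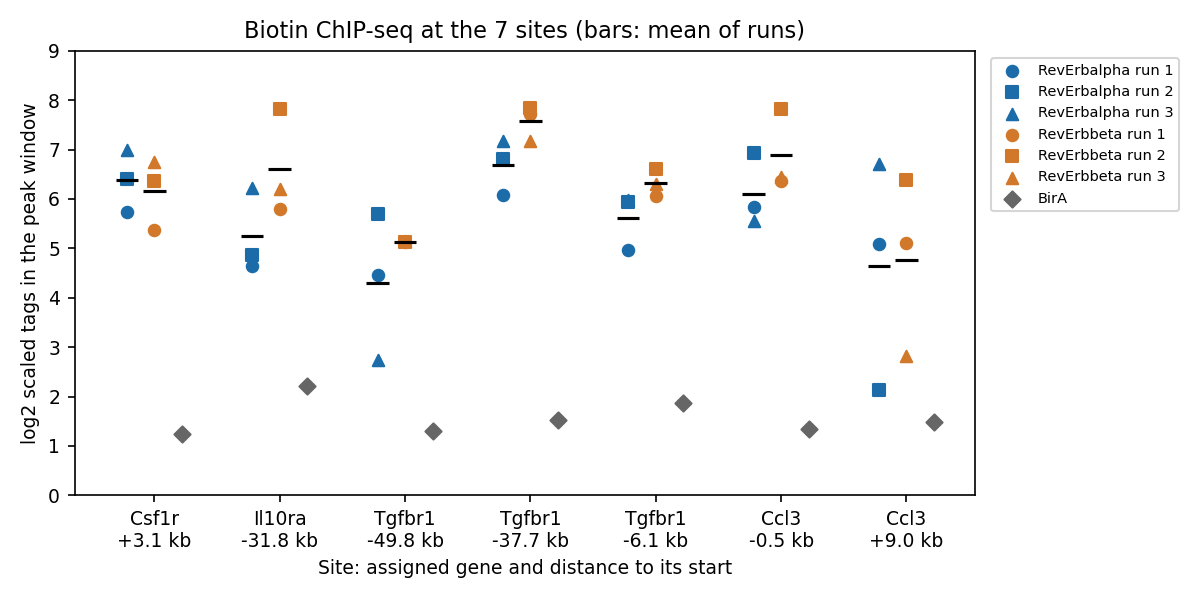
Log2 scaled tags in 157 bp at each site for the 3 RevErbalpha runs (blue), the 3 RevErbbeta runs (orange) and BirA (grey), with bars for the mean of runs. All RevErb points lie above BirA, and the downstream Ccl3 site (+9.0 kb) has the widest spread, with runs at 2.14 and 6.70 for RevErbalpha.

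The next comparison was of nascent RNA at the sites with and without biotinylated RevErbalpha. Signal was lower with RevErbalpha by 1 or more on the log2 scale at 3 of 7 sites, 2 of Tgfbr1 and 1 of Ccl3, and by at most 0.32 or not at all at the other 4. At all 1544 sites 20.0% were lower by 1 or more. At 0 of 7 sites was it higher by 1 or more, where the share over all sites was 4.92%. The values are log2 of tags in 500 bp scaled to 10000000. The median difference was -0.32 over the 7 sites and -0.23 over all sites, so a difference is also given relative to that general shift.

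The downstream Ccl3 site had the widest difference of the 7, reading 5.91 with RevErbalpha and 7.20 in control cells. The difference was -1.29, about 42.8 against 273 tags before scaling, with an approximate 95% interval of -1.80 to -0.83 that takes these tags as counts and covers counting error only. Relative to the shift over all sites it was -1.06. The upstream Ccl3 site, close to the gene's start, read 5.67 with RevErbalpha and 5.79 in control cells, a difference of -0.12 (-0.72 to 0.43) that turned to 0.11 relative to the shift. A common site assigned to Heatr6 (chromosome 11, 83550914 to 83551070), 87608 bp from the upstream Ccl3 site, was higher with RevErbalpha, with a difference of 1.09, and in GRO-seq its difference, labelled DKO minus WT, was -1.55. The more strongly bound of the 2 Ccl3 sites was thus the one with little difference.

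The middle Tgfbr1 site read 5.79 with RevErbalpha and 6.89 in control cells, a difference of -1.10 (-1.66 to -0.63) and of -0.87 relative to the shift. The nearest Tgfbr1 site read 4.98 with RevErbalpha and 6.02 in control cells, a difference of -1.04 (-1.80 to -0.41) and of -0.81 relative to the shift. Both were near the limit of 1 and fell short of it relative to the shift, and with 10 in place of 1 added before the logarithm they were -0.99 and -0.87. The farthest Tgfbr1 site read 7.63 with RevErbalpha and 7.85 in control cells, a difference of -0.22 (-0.50 to 0.06) that was 0.01 relative to the shift. The site assigned to Col15a1 beyond it was lower by more, with a difference of -2.85.

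The Csf1r site had the strongest 5'GRO-seq signal of the 7, 10.11 with RevErbalpha and 9.95 in control cells. Its signal was above that of over 99% of all sites in both libraries (99.6% with RevErbalpha and 99.3% in control cells). Its difference was 0.16 (0.04 to 0.28), or 0.39 relative to the shift over all sites. The Il10ra site read 7.37 with RevErbalpha and 7.69 in control cells, a difference of -0.32 (-0.63 to -0.02), or -0.09 relative to the shift.

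By class, the 3 sites lower by 1 or more were all intergenic enhancers, of which the genes have 4. Over all sites 95 of 556 intergenic enhancers (17.1%) were lower by 1 or more, 177 of 687 other enhancers (25.8%) and 37 of 301 sites with H3K4me3 above H3K4me1 (12.3%). The 4 and 3 member sites on either side are too few to compare the classes.

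**Figure D3:**
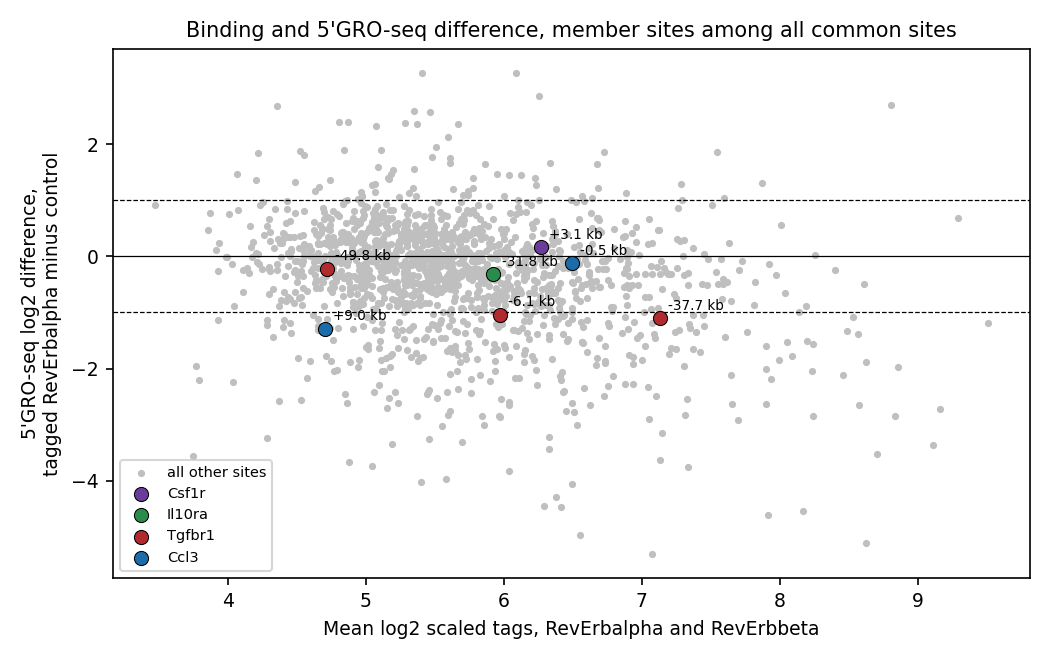
Mean log2 scaled tags of both RevErbs at each site against the 5'GRO-seq log2 difference, biotinylated RevErbalpha minus control, for the 7 member sites (coloured by gene, with distance to the start) and all other common sites (grey). The dashed lines mark -1 and 1, and 3 member sites lie under -1, at mean binding of 4.71 (Ccl3), 5.97 and 7.13 (both Tgfbr1).

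GRO-seq signal at the sites was compared between the library labelled DKO and WT, with 1 column for each. Of the 7 sites 1 was lower by 1 or more in the library labelled DKO and 0 were higher by 1 or more, where the shares over all sites were 2.20% and 3.37%. The median difference was 0.10 over the 7 sites and 0.03 over all sites. The lower site was the nearest Tgfbr1 site, which read 1.09 (labelled DKO) and 2.19 (WT), a difference of -1.11. Its signal was the lowest of the member sites, above 13.5% (labelled DKO) and 25.6% (WT) of all sites, and with 10 in place of 1 added before the logarithm its difference was -0.29. This was also 1 of the 3 sites lower with biotinylated RevErbalpha in RAW cells. Of all 1544 sites 11 were lower by 1 or more in both comparisons.

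The upstream Ccl3 site read 5.21 (labelled DKO) and 5.71 (WT), a difference of -0.51, and the downstream one 3.91 and 4.13, a difference of -0.22. The Il10ra site read 4.66 (labelled DKO) and 4.34 (WT), a difference of 0.31. The middle Tgfbr1 site read 3.72 (labelled DKO) and 3.44 (WT), a difference of 0.28, and the farthest 4.75 and 4.64, a difference of 0.10. The Csf1r site was again the highest, at 7.39 (labelled DKO) and 7.26 (WT), above 99.1% and 99.0% of all sites. It lies 3143 bp downstream of the Csf1r start, so transcription of Csf1r itself may enter its signal, which was not tested. No runs are given at sites, so the spread behind these differences is unknown.

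**Figure D4:**
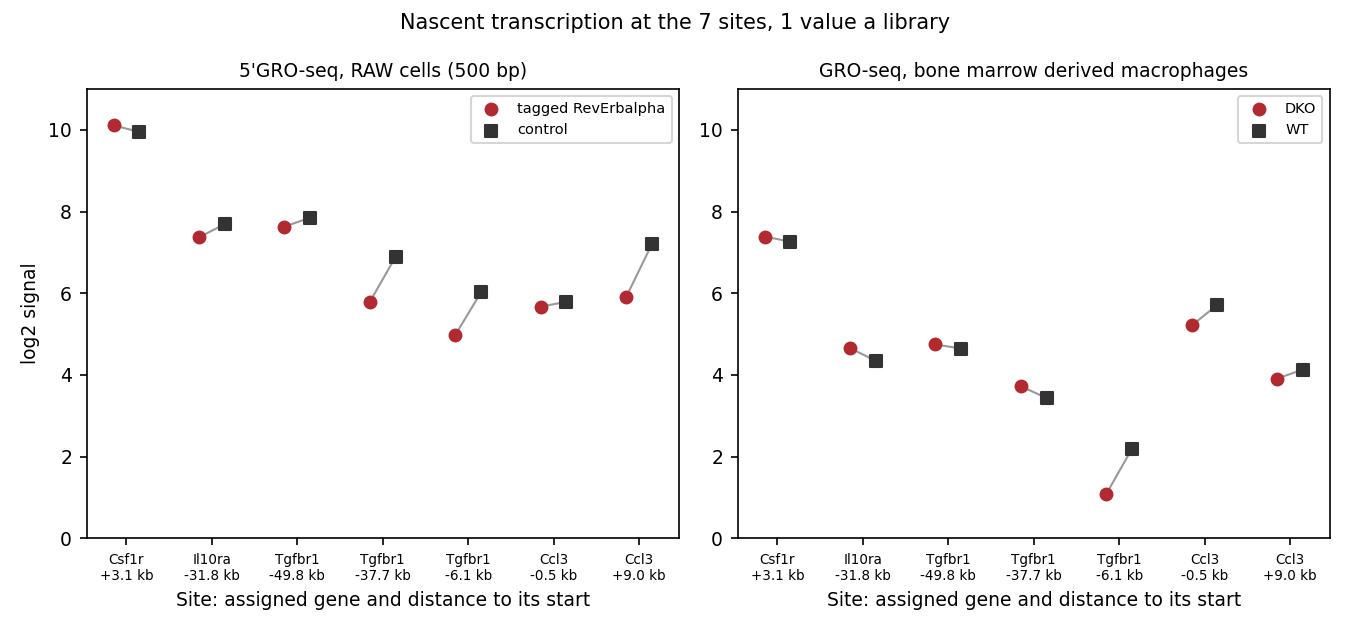
Log2 signal at each of the 7 sites, 1 point a library: left, 5'GRO-seq in RAW cells with biotinylated RevErbalpha (red) and control cells (black); right, GRO-seq in the library labelled DKO (red) and WT (black). Lines join the 2 values of a site, and the steepest are the downstream Ccl3 site on the left (5.91 and 7.20) and the nearest Tgfbr1 site on the right (1.09 and 2.19).

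Transcription of the 4 genes themselves differed little between genotypes, and the runs of the genotypes overlapped for every one. Calls were made for genes whose means differed by 0.5 or more with runs that did not overlap. By this rule 0 of 4 genes were higher and 0 of 4 lower, where the shares over all 1220 genes were 1.97% and 0.738%. Without the size limit, both DKO runs lay above both WT runs for 18.4% of all genes and below for 10.0%, and neither held for any of the 4.

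Csf1r read 12.52 and 12.71 in the runs labelled DKO and 12.71 and 12.33 in the WT runs, a difference of 0.095, and its level was above that of 92.0% of the genes. Tgfbr1 read 12.05 and 11.89 in the runs labelled DKO and 11.92 and 12.18 in the WT runs, a difference of -0.08. Il10ra read 11.58 and 11.81 in the runs labelled DKO and 11.95 and 11.19 in the WT runs, and its mean was higher by 0.125. The WT runs of Il10ra were the farthest apart of the 4 genes (SD 0.54), and without WT run 1 the difference was 0.505 with runs that no longer overlapped, while without WT run 2 it was -0.255. Ccl3 read 8.63 and 9.15 in the runs labelled DKO and 9.11 and 8.64 in the WT runs, a difference of 0.015. Ccl3 was the gene with the least signal, above the level of 32.3% of the genes, and whether reads of Ccl4 could enter its value was not given. Values are not scaled to gene length, so the 4 levels are not an order of expression.

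The genes whose 4 runs lay nearest to each member were named by Euclidean distance over the 4 run values of 2 samples. For Csf1r they were Lgals3 (0.12), Prex1 (0.17) and Slc23a2 (0.21), and for Il10ra Ap1b1 (0.27), Litaf (0.29) and Tns1 (0.35). For Tgfbr1 they included Plcg2 (0.19) and Sh3pxd2a (0.23), and for Ccl3 they were Gadd45b (0.19), Gdpd3 (0.23) and Treml1 (0.24). The measure follows the level above all, since differences between runs were small beside differences between genes.

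**Figure D5:**
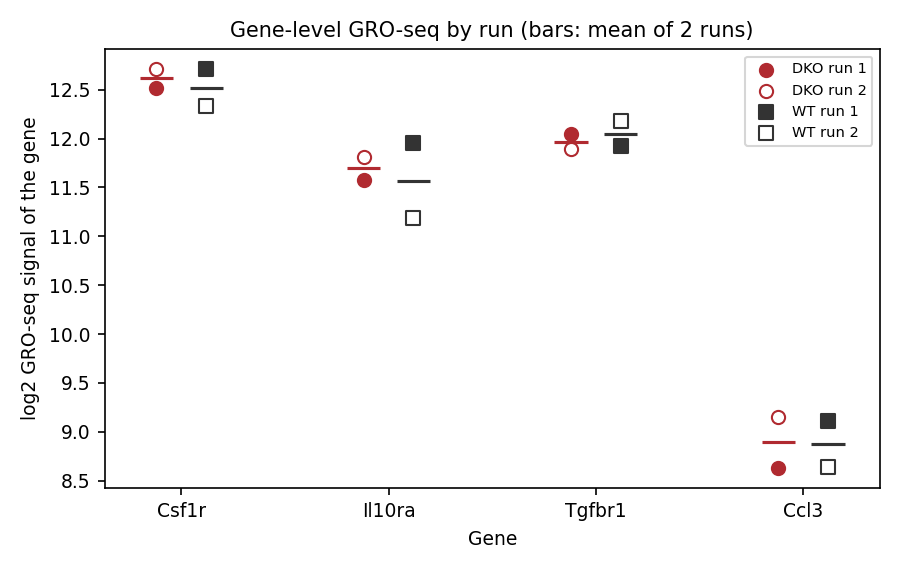
Log2 GRO-seq signal of the 4 genes in each of 2 runs labelled DKO (red) and 2 WT runs (black), with bars for the means. The runs of the genotypes overlap for each gene, and the WT runs of Il10ra (11.95 and 11.19) lie farthest apart.

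Other genes of the same pathways were read from 8 lists, of which 35 genes besides the 4 members have a common site. Of these 35, 1 was higher in the library labelled DKO by the gene rule and 0 were lower, where the shares over all genes were 1.97% and 0.738%, and the median difference was 0.055, against 0.035 over all genes. Both DKO runs lay above both WT runs for 5 of the 35 and below for 0, where the shares over all genes were 18.4% and 10.0%. The gene that passed was Cx3cr1, the fractalkine receptor, which read 10.24 and 10.40 in the runs labelled DKO and 8.19 and 9.16 in the WT runs. It was the 1 of 4 chemokine receptors in the table to pass, and the next, Ccrl2 (0.445) and Cxcr4 (0.315), had overlapping runs. Cxcr4 is the receptor for Cxcl12 and Ccrl2 an atypical receptor that binds chemerin.

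Csf1r is the only one of 12 colony stimulating factors and their receptors with a common site. Downstream of it, 10 of 21 listed signalling genes have one. The lists were written with earlier results of these data known, so such counts do not measure enrichment. Of the 10, 0 passed the gene rule, where the shares over all genes were 1.97% higher and 0.738% lower. The largest differences among the 10 were 0.335 for Dok2, an adaptor that restrains kinase signalling, and 0.205 for Tyrobp, an adaptor of myeloid receptors. Spred1, an inhibitor of Ras signalling, followed at -0.115. The runs of Dok2 did not overlap, at 8.77 and 9.06 in the runs labelled DKO and 8.45 and 8.71 in the WT runs.

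Of 12 listed genes of interleukin-10 signalling 4 have a site, and 0 passed. Besides Il10ra these are Bcl3 (0.17), an atypical inhibitor of NF-kappaB, the repressor Etv3 (-0.05) and the kinase Jak1 (-0.005). Of 28 listed TGF-beta genes 9 have a site, and 0 passed. Smad3, which Tgfbr1 phosphorylates, differed by 0.135, with 11.33 and 11.29 in the runs labelled DKO above 11.18 and 11.17 in the WT runs. Acvr1b, the type I receptor for activins, differed by 0.105, also without overlap, and Ltbp3, which binds latent TGF-beta, by 0.115, with overlapping runs.

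Of 24 listed chemokines 4 have a site: Ccl3, Cxcl14 (-0.105), Cxcl16 (0.08) and Pf4 (0.035), and 0 passed. Of 17 other cytokines Il1a (0.115) and Tnf (0.08) have one, and of 26 other cytokine receptors 5 do, led by Il13ra1 (0.295) and Lifr (0.23), with 0 passing in either list. At the 59 sites of the 35 genes 5'GRO-seq signal was lower with biotinylated RevErbalpha by 1 or more at 7 (11.9%, against 20.0% of all sites) and higher by 1 or more at 2 (against 4.92% of all sites), with a median difference of -0.27. GRO-seq signal in the library labelled DKO was lower by 1 or more at 0 of these sites and higher by 1 or more at 3, where the shares over all sites were 2.20% and 3.37%.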

How the data were processed

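Biotin ChIP-seq, 5'GRO-seq and GRO-seq values of 7 of the 15 samples were used, and values of the others were not analysed here. The submitters' processing notes name Bowtie 0.12.7, HOMER and mm9. The deposited values are log2 signal, per the file headers: tags in 157 bp (ChIP-seq) or 500 bp (5'GRO-seq) scaled to 10000000, and GRO-seq at sites and genes with no further scaling stated. No count test was run on them: of 300 control 5'GRO-seq values under 20 tags, 16.3% lay within 0.1 of a whole tag. Tags quoted are back-calculated from log2(scaled tags + 1), so they are approximate, and the Clopper-Pearson intervals take them, rounded, as if they were counts. The site assignments, distances and classes are the authors'.

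Runs were averaged on the log2 scale, and the means and differences lay within 0.01 of the authors' deposited columns. Python 3.11.15, pandas 2.3.3 and scipy 1.17.1 were used. The gene rule was checked on artificial data. Members and all 8 gene lists were chosen with earlier results of these data known. All members and sites are named, with the 3 nearest genes each (1 of them is not reported here), and at most 4 genes a list by size of difference. Of 1220 gene IDs 1208 matched RefSeq (GRCm38.p6), used for names, neighbours and promoters. Alternatives were the number added before the logarithm, runs left out, the runs above 1000000 tags alone, centring, a signal filter and another size limit.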

Additional observations from a re-analysis of the deposited data

How the results depend on the processing

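No paired analysis was possible across samples because each group has 1 sample. Pairing runs of the same number (a replicate block) leaves each mean difference unchanged by arithmetic. The median difference of the 4 genes, 0.055, therefore had to stay the same and is not a check. Whether runs of the same number were prepared together is not known. The run differences of the genotypes correlated at -0.0995 across 1220 genes, which cannot settle it.

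With 10 added before the logarithm the median signal over BirA at the 7 sites was 2.52 in place of 4.10, the median 5'GRO-seq difference -0.31 with 1 site lower in place of 3, and the median GRO-seq difference at sites 0.074 with 0 sites lower in place of 1. With the median over all sites taken away the 5'GRO-seq median was -0.09 with 1 site lower, and the GRO-seq median 0.07. Among sites above the lower quartile of signal the GRO-seq median was 0.11 with 0 sites lower, since the nearest Tgfbr1 site drops out. With a size limit of 0.5 the GRO-seq count was 2 sites lower. With 1 run left out the signal over BirA was 4.02 to 4.27, the median of the genes -0.16 to 0.27, and the number of genes higher 0 to 1 (Il10ra without WT run 1). Depth limits the shallow ChIP-seq runs most.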
